A study of Rattus norvegicus with 6 samples.

Results

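Molecular chaperones are proteins that help other proteins fold, keep unfolded chains from clumping and hand damaged ones over for disposal. Chaperone genes and their co-chaperones were taken from the deposited rat brain count table by symbol: every row whose symbol begins as an Hspa, Hspb, Hspd, Hspe, Hsph or Hsp90 gene, a Dnaja, Dnajb or Dnajc gene, a numbered Cct gene or a numbered Bag gene, together with 16 further symbols such as Cryab, Hsf1, Calr and Herpud1. The rule found 103 rows of 19382, and 93 of them had enough reads to be tested. They were sorted by the place where the protein works, by heat inducibility and in part by gene family. The classes held 14 heat-inducible and 15 constitutive chaperones of the cytosol and 10 rows of the chaperonin CCT. They also held 10 mitochondrial and 23 endoplasmic reticulum (ER) members, 5 further BAG co-chaperones, 6 further small heat shock proteins and 20 vesicle, nuclear or other members.

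RNA was sequenced from rat brain tissue in 3 control libraries and in 3 libraries labelled as hypoxic-ischemic treatment (HI). The series' design text speaks of SD rats 7 days old and of 2.5 h of ischemia and hypoxia, a model of brain injury around birth. The labels do not give the brain region, the time from injury to sampling, the sex, or the age and handling of the controls. Whether each library is its own animal is not stated either, and the p-values measure only the spread between these libraries, which may be technical. In bulk tissue, fewer cells of a type and less RNA per cell cannot be told apart.

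In a resting cell the cytosolic HSP70 and HSP90 proteins are supplied by genes that are always on, such as Hspa8 and Hsp90ab1. When unfolded protein gathers in the cytosol, the transcription factor HSF1 binds heat shock elements and turns on a further set, among them the Hsp70-1 copies and the small heat shock protein Hspb1. The ER has its own chaperones, with Hspa5 (BiP) at their head, which answer to the ER sensors of unfolded protein through ER stress elements. Mitochondria import another set, with Hspa9 (mortalin) and the Hspd1 and Hspe1 folding cage.

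Between 13922663 and 14927469 estimated reads were assigned per library, and the 103 chaperone rows took 1.36% to 1.46% of them in controls and 1.53%, 1.73% and 1.86% in HI 1, HI 2 and HI 3. Levels below are CPM, counts scaled to library size with the TMM factor of each library, and fold changes are HI over control from the edgeR quasi-likelihood F test with Benjamini-Hochberg adjustment over 14959 genes. Neuron markers summed to between 7692 and 10050 CPM in the control libraries and to 3128 to 5798 CPM in the HI libraries. Choroid plexus markers, from the epithelium that makes cerebrospinal fluid, summed to 20.7, 2137 and 12.3 CPM in controls 1, 2 and 3 and to 184, 8063 and 15150 CPM in HI 1, 2 and 3, so the libraries differed widely in that tissue within each group.

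Of the 93 tested members 6 rose and 3 fell in HI. Over all genes tested 6.83% rose and 7.04% fell, so the shares of members that passed, 6.45% and 3.23%, were no larger than in the whole table. Of the 6 rises, 5 were in a single class, the inducible cytosolic one. The classes were drawn up with earlier results of these data known, so the count by class is a description only. Small heat shock proteins and BAG genes were divided between that class and classes of their own. Among the 14 inducible cytosolic members 5 rose (35.7%) and 0 fell, with 8 higher and 0 lower at an unadjusted p below 0.05 (19.1% and 17.4% of all genes tested). The 8 include Hspa1a, which had enough reads to be tested only through its HI libraries. DESeq2 called 6 of them higher and 0 lower, beside 13.9% and 14.2% of all genes, and limma-voom called 2 higher and 0 lower, beside 3.69% and 5.47%. The remaining rise was 1 of 10 mitochondrial members. Of the 3 that fell, 1 was among 14 tested constitutive members, 1 among 5 BAG co-chaperones and 1 among 17 tested vesicle, nuclear or other members.

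The median log2 fold change was 0.41 in the inducible cytosolic class, -0.02 in the constitutive class, 0.00 in the chaperonin, 0.15 in the mitochondrial class and 0.19 in the ER class, beside 0.04 over all genes tested. With total-count scaling the constitutive, chaperonin, mitochondrial and ER medians became 0.17, 0.20, 0.34 and 0.40, and that of all genes 0.23. Without members that share reads the inducible median was 0.18 and the mitochondrial median 0.07. Without HI 3 the mitochondrial and ER medians were 0.05 and 0.10, and without HI 1 they were 0.24 and 0.34. The mitochondrial median was 0.09 without control 2, and the ER median 0.11 without control 3. Quartiles of the inducible class lay at 0.17 and 2.38, those of the constitutive class at -0.11 and 0.09 and those of the ER class at 0.02 and 0.48. The HI libraries lay wholly above the controls for 9 of 14 inducible, 1 of 14 constitutive, 1 of 8 chaperonin, 3 of 10 mitochondrial and 6 of 23 ER members. Hspa1a, tested only through its HI libraries, is among those 9 and in the inducible median and quartiles, with a log2 fold change of 2.68. The inducible median of 0.41 lay between Chordc1 (0.30) and Hsp90aa1 (0.52), which did not pass. Over all genes that held for 21.5%, and HI stood wholly below control for 20.8%. The difference between classes was not put to a test, since the members and classes were chosen with results of these data known.

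**Figure D1:**
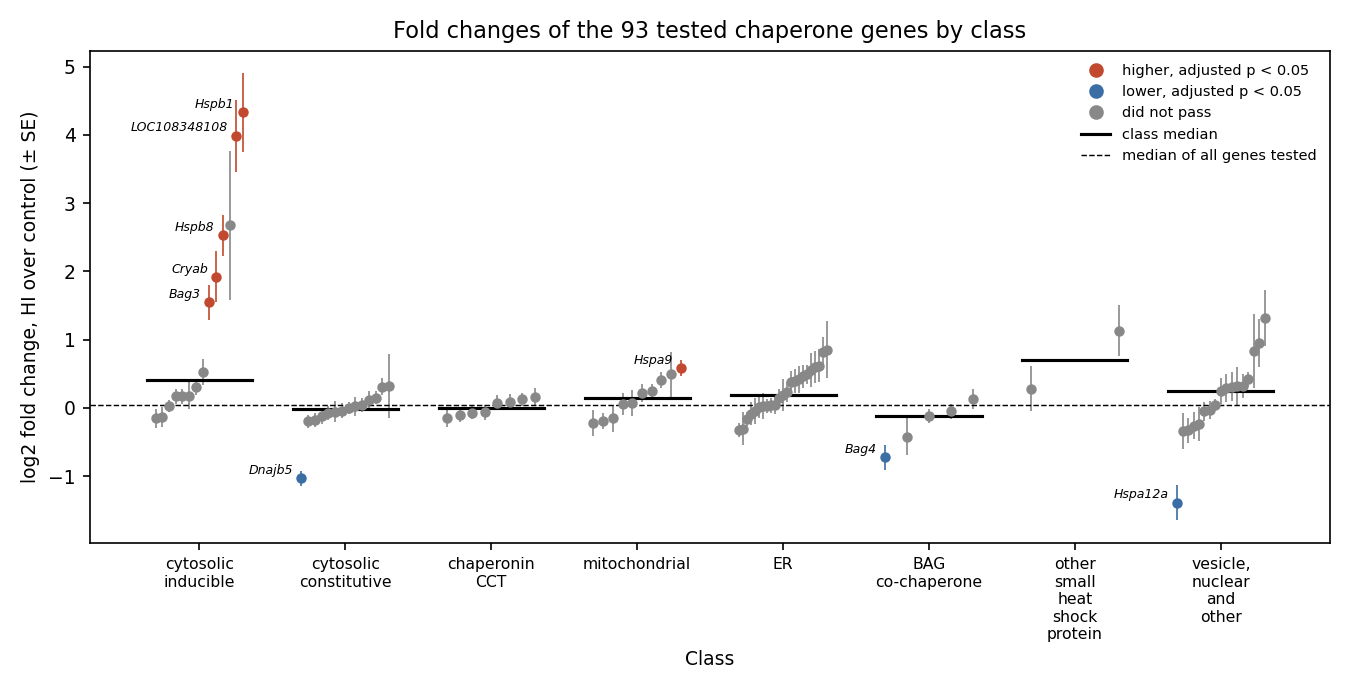
Each point is the log2 fold change of 1 tested chaperone gene, HI over control, with its SE, grouped by class along the horizontal axis; bars are class medians and the dashed line is the median of all genes tested. The genes that passed the test sit mostly in the inducible cytosolic class, where Hspb1 reached 4.33, while the chaperonin subunits lay between -0.15 and 0.16.

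Small heat shock proteins are ATP-independent holders of unfolded chains. Hspb1 (Hsp27) stood at 1.74, 1.84 and 1.20 CPM in controls 1, 2 and 3 and at 11.5, 38.9 and 46.2 CPM in HI 1, 2 and 3. The groups did not overlap, and HI 1 lay well under the other HI libraries. Its log2 fold change was 4.33 ± 0.57 (SE), a 20.1-fold rise (edgeR adjusted p = 0.0215). Hspb8, which works with Bag3 to send aggregates to autophagy, measured 5.91, 7.36 and 9.58 CPM in the control libraries and 33.4, 37.4 and 61.3 CPM in the HI libraries. It rose 5.78-fold, a log2 fold change of 2.53 ± 0.30 (edgeR adjusted p = 0.0198), and here HI 3 was the high library. Cryab (alpha B-crystallin), known from lens, muscle and glia, measured 4.85, 7.36 and 4.34 CPM in the control libraries against 11.9, 22.4 and 28.4 CPM in the HI libraries. Its rise was 3.78-fold, a log2 fold change of 1.92 ± 0.37 (edgeR adjusted p = 0.0294). That call held in 8 of 14 other settings. It was lost by limma-voom and on leaving out any 1 library other than HI 1 (edgeR adjusted p up to 0.107). In GRCr8 the span of Cryab overlaps that of Hspb2, and reads of overlapping genes cannot be told apart without strand.

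Hspb6, a small heat shock protein of muscle, differed by 1.13 ± 0.37 on the log2 scale, which missed the threshold (edgeR adjusted p = 0.0809). It read 7.80, 7.80 and 7.49 CPM in the control libraries and 9.16, 15.4 and 26.1 CPM in the HI libraries, so the groups were apart and the HI libraries were widely spread. Hspb11, a small heat shock protein by name that is now called Ift25 for its place in ciliary transport, had a log2 fold change of 0.28 ± 0.33. Hspb2, Hspb3, Hspb7 and Hspb9 were not tested, with at most 16, 6, 4 and 3 reads in any library. Of the 5 small heat shock proteins tested, of 9 in the table, 3 thus rose and 0 fell by edgeR, beside 6.83% and 7.04% of all genes. By limma-voom only Hspb8 of the 5 passed, with adjusted p = 0.0589 for Hspb1 and 0.0531 for Cryab, whereas DESeq2 also called Hspb6 (adjusted p = 0.0253). Hspbp1 and Hspbap1, which bind HSP70 and HSPB1 and are not small heat shock proteins, had log2 fold changes of -0.12 ± 0.12 and 0.32 ± 0.18.

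Inducible HSP70 is encoded by near-identical neighbouring genes. The row LOC108348108, which the reference gene table of assembly GRCr8 names Hspa1b, measured 2.82, 2.28 and 3.31 CPM in the control libraries and 16.7, 58.5 and 58.0 CPM in the HI libraries. HI 2 and HI 3 were alike and HI 1 lay between them and the controls. It rose 15.9-fold, a log2 fold change of 3.99 ± 0.53 (edgeR adjusted p = 0.0215). Its sister row Hspa1a held 26.8, 0 and 6.73 reads in controls and 33.6, 74.1 and 156 reads in HI. Its difference of 2.68 ± 1.09 on the log2 scale missed the threshold (edgeR adjusted p = 0.130), and it entered the test through its HI reads. Hspa1a holds fractional counts, so reads were divided between rows, and in GRCr8 the span of Hspa1a also overlaps that of Hspa1l, a testis HSP70 with at most 29.1 reads in any library, so each row is uncertain alone. Summed over LOC108348108 and Hspa1a the level was 4.85, 2.28 and 3.82 CPM in the control libraries and 18.9, 63.3 and 67.4 CPM in the HI libraries. That sum rose 13.7-fold, a log2 fold change of 3.77 ± 0.56 (edgeR adjusted p = 0.0219).

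Bag3, the co-chaperone that links HSP70 to Hspb8 and to autophagy, measured 5.76, 5.60 and 7.04 CPM in the control libraries and 12.97, 17.4 and 23.4 CPM in the HI libraries. The groups were apart and the rise was 2.92-fold, a log2 fold change of 1.55 ± 0.26 (edgeR adjusted p = 0.0238). Of the 5 other BAG genes 0 rose and 1 fell, beside 6.83% and 7.04% of all genes tested. Bag4, which binds HSP70 and death receptors, fell from 28.5, 32.2 and 23.8 CPM in controls to 19.9, 17.2 and 13.995 CPM in HI, which is a log2 difference of -0.73 ± 0.18 (edgeR adjusted p = 0.0480), and its span overlaps that of Lsm1 in GRCr8. That call held in 6 of 14 other settings and was lost with upper-quartile or total-count scaling, without a filter and by limma-voom (adjusted p = 0.0600, 0.0667, 0.0520 and 0.0547), and without control 1, control 2, HI 2 or HI 3 (edgeR adjusted p from 0.110 to 0.146). Bag2, an inhibitor of the ubiquitin ligase CHIP, had -0.42 ± 0.27, and Bag1, Bag5 and Bag6 lay between -0.13 and 0.12, with 0 of these 4 passing.

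**Figure D2:**
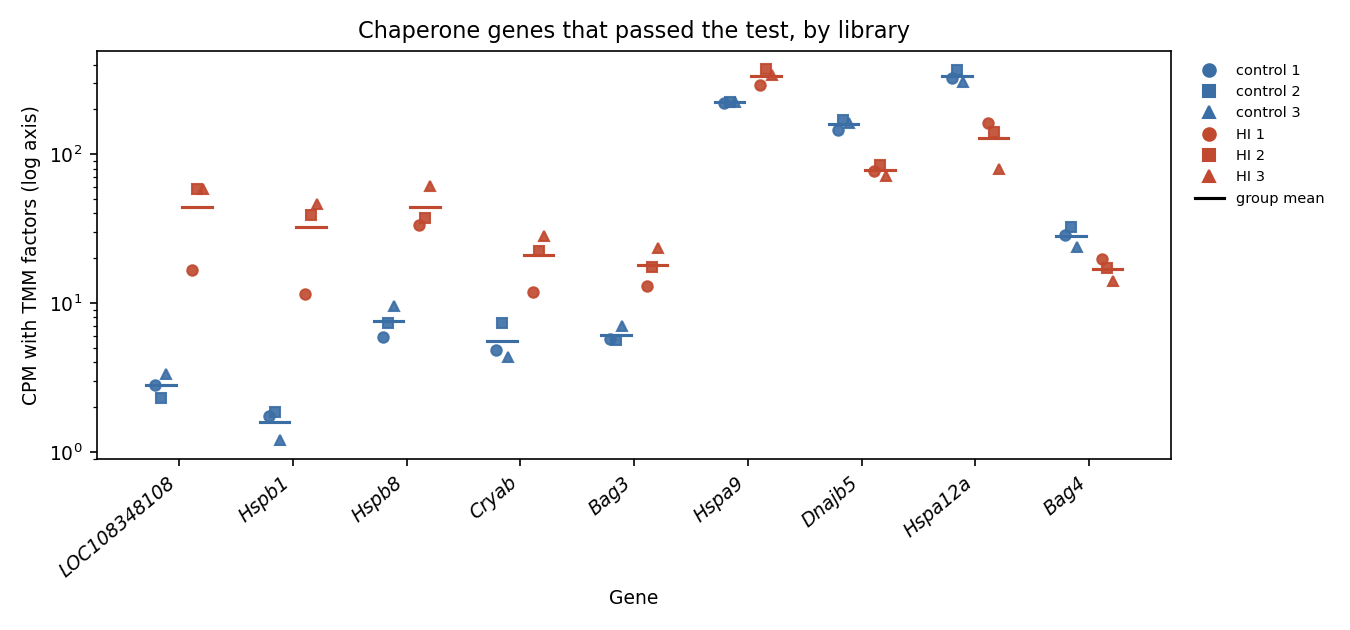
CPM with TMM factors, on a log axis, of the 9 chaperone genes that passed the test, with 1 symbol for each of the 6 libraries and a bar at each group mean. For the 5 inducible genes at the left HI 1 is the lowest HI library and still above every control, as with Hspb1 at 11.5 CPM against at most 1.84 CPM.

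The rest of the heat-inducible set did not pass the test. The remaining 8 inducible members had log2 fold changes from -0.15 (Ahsa1) to 0.52 (Hsp90aa1), and none of these passed by edgeR, with 2, Hsp90aa1 and Chordc1, under an unadjusted p of 0.05. DESeq2 called 1 of the 8, Hsp90aa1 (DESeq2 adjusted p = 0.0269), and limma-voom called 0. Of all genes tested edgeR called 6.83% higher and 7.04% lower, with 19.1% and 17.4% at an unadjusted p below 0.05. The shares were 13.9% and 14.2% by DESeq2, and 3.69% and 5.47% by limma-voom. Dnajb1, the HSP40 partner of inducible HSP70 and a standard readout of HSF1, measured 67.9, 75.3 and 72.2 CPM in the control libraries and 71.5, 77.0 and 70.6 CPM in the HI libraries, with overlapping groups and a log2 fold change of 0.02 ± 0.09. Hsph1, the HSP110 exchange factor of HSP70, had 0.18 ± 0.20, Dnaja1, an HSP40, -0.13 ± 0.15, and Stip1, which bridges HSP70 and HSP90, 0.17 ± 0.11. Hsp90aa1, the inducible cytosolic HSP90, read 968, 1055 and 991 CPM in the control libraries and 1100, 1647 and 1580 CPM in the HI libraries. The groups were apart, HI 1 only just, and the difference of 0.52 ± 0.19 on the log2 scale missed the threshold (edgeR adjusted p = 0.0985). Chordc1, an HSP90 co-chaperone, stood at 44.8 ± 1.89 CPM in the control libraries and 55.2 ± 4.88 CPM in the HI libraries (SD, n = 3 per group). Hsf1 itself had a log2 fold change of -0.05 ± 0.13, with 21.6, 23.0 and 27.6 CPM in the control libraries and 22.5, 23.1 and 23.9 CPM in the HI libraries.

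Among constitutive cytosolic chaperones 1 gene passed the test, and both of the most abundant had overlapping groups. Hspa8, the housekeeping HSP70, measured 1537, 1589 and 1411 CPM in the control libraries and 1496, 1626 and 1766 CPM in the HI libraries, with overlapping groups and a log2 fold change of 0.11 ± 0.14. Hsp90ab1, the constitutive HSP90, measured 2030, 2033 and 1705 CPM in the control libraries and 1707, 1942 and 1906 CPM in the HI libraries, a log2 fold change of -0.05 ± 0.16 that turned to 0.04 and 0.14 with upper-quartile and total-count scaling. Of the 14 tested 0 rose and 1 fell by edgeR, beside 6.83% and 7.04% of all genes tested. At an unadjusted p below 0.05 there were 1 higher and 1 lower, beside 19.1% and 17.4% of all genes. DESeq2 and limma-voom each called 0 higher and 1 lower. The single fall was Dnajb5, an HSP40 of brain and muscle that acts on class II histone deacetylases. Dnajb5 read 146, 170 and 162 CPM in the control libraries and 77.3, 85.0 and 71.5 CPM in the HI libraries. Its groups were tight and far apart, the log2 fold change was -1.03 ± 0.11, and its edgeR adjusted p of 0.0196 was the smallest of any member. Dnaja4, the other member with a nominal difference, had 0.31 ± 0.13 (edgeR adjusted p = 0.137). Hspa4, Hspa4l and Hspa14 lay between -0.08 and 0.02, and Hspa2, which is variable between libraries, ranged from 14.2 to 28.5 CPM in controls and from 12.0 to 39.9 CPM in HI.

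Chaperonin CCT is the ring of different subunits that folds actin and tubulin. Its 8 tested subunits lay between -0.15 (Cct6a) and 0.16 (Cct4) on the log2 scale, 4 above and 4 below 0. None passed by edgeR, 0 were under an unadjusted p of 0.05, and DESeq2 and limma-voom called 0. Over all genes tested edgeR called 6.83% higher and 7.04% lower, with 19.1% and 17.4% at an unadjusted p below 0.05. DESeq2 called 13.9% and 14.2% of all genes, and limma-voom 3.69% and 5.47%. With 8 subunits, counts of 0 are not read as a result about the chaperonin. Tcp1 measured 189, 211 and 177 CPM in the control libraries and 172, 189 and 190 CPM in the HI libraries, with groups that overlapped. Cct6a ranged from 228 to 292 CPM in controls, and the HI libraries at 241 to 243 CPM lay inside that range. Cct6b and Cct8l1, the testis forms, had at most 9 and 4 reads in any library and were not tested.

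Of 10 mitochondrial members 1 rose and 0 fell, a share of 10% beside 6.83% of all genes called higher. Hspa9, the HSP70 that pulls proteins into the matrix, stood at 220, 224 and 225 CPM in the control libraries and 290, 372 and 340 CPM in the HI libraries. The controls were almost equal and HI lay wholly above, a rise of 1.497-fold or 0.58 ± 0.12 on the log2 scale (edgeR adjusted p = 0.0318). Hspa9 is among the rows with shared reads, so its value is uncertain to that extent. Its call was lost on leaving out any 1 library other than HI 1 (edgeR adjusted p from 0.0591 to 0.124). Hspd1 (HSP60) had the same order of HI libraries, with HI 1 lowest and HI 2 highest, at 280, 294 and 277 CPM in the control libraries and 325, 418 and 387 CPM in the HI libraries, or 0.41 ± 0.12 on the log2 scale, which missed the threshold (edgeR adjusted p = 0.0665, DESeq2 adjusted p = 0.0153). Hspe1, the lid of the Hspd1 cage, had 0.22 ± 0.13 and overlapping groups. Dnaja3, the matrix HSP40, measured 63.2 ± 4.97 CPM in the control libraries and 74.9 ± 1.63 CPM in the HI libraries, a log2 fold change of 0.25 ± 0.10 (edgeR adjusted p = 0.117). The other mitochondrial J proteins, Dnajc4, Dnajc11, Dnajc15, Dnajc19, Dnajc28 and Dnajc30, ranged from -0.22 to 0.49, and 0 of them passed by edgeR, DESeq2 or limma-voom. Of all genes tested edgeR called 6.83% higher and 7.04% lower, DESeq2 13.9% and 14.2%, and limma-voom 3.69% and 5.47%.

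None of the 23 ER members passed the test by edgeR, and most differences were positive. The log2 fold change was positive in 18 of them and negative in 5, beside 7967 positive of 14959 genes. EdgeR called 0, with 5 higher and 1 lower at an unadjusted p below 0.05, beside 19.1% and 17.4% of all genes tested. DESeq2 called 2 higher, Herpud1 and Dnajb9, and 1 lower, Dnajc14, beside 13.9% and 14.2% of all genes. Limma-voom called 0, beside 3.69% and 5.47%. Herpud1, part of the machinery that returns ER proteins for degradation, came closest, with 34.5, 40.1 and 33.4 CPM in controls, 43.6, 69.02 and 76.9 CPM in HI, for a log2 difference of 0.81 ± 0.22 (edgeR adjusted p = 0.0551). Dnajb9, a BiP co-chaperone, read 14.9, 13.8 and 16.2 CPM in the control libraries and 21.9, 19.2 and 22.1 CPM in the HI libraries, a log2 fold change of 0.49 ± 0.14 (edgeR adjusted p = 0.0599). For both genes the groups were apart.

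Hspa5 (BiP) measured 382, 463 and 435 CPM in the control libraries and 453, 509 and 743 CPM in the HI libraries. HI 1 lay inside the control range and HI 3 stood far out, so the log2 fold change of 0.41 ± 0.20 was not separable from the spread (edgeR adjusted p = 0.192). Hsp90b1 (GRP94), the ER HSP90, also had HI 3 as its highest library but with HI 1 just above the controls, at 434, 448 and 391 CPM in the control libraries and 459, 520 and 689 CPM in the HI libraries, at 0.39 ± 0.17 (edgeR adjusted p = 0.152). Sdf2l1, a partner of BiP, was at 6.59, 8.32 and 8.31 CPM in the control libraries and 7.42, 11.3 and 23.1 CPM in the HI libraries. The disulfide isomerase Pdia4 read 48.2, 60.5 and 50.01 CPM in the control libraries and 56.5, 69.5 and 107 CPM in the HI libraries. HI 3 was the highest HI library for 16 of 23 ER members (69.6%), beside 42.0% of all genes tested. The same held for 8 of 14 inducible, 5 of 8 chaperonin, 3 of 5 BAG and 2 of 2 further small heat shock members. It held for 5 of 14 constitutive, 4 of 10 mitochondrial and 7 of 17 vesicle, nuclear or other members. The lectin chaperones Calr and Canx had log2 fold changes of 0.23 ± 0.15 and 0.03 ± 0.11, and Manf, a secreted ER stress protein, 0.01 ± 0.17. Creld2, Dnajc1 and Dnajc3 had 0.61 ± 0.24, 0.60 ± 0.23 and 0.46 ± 0.17 with HI wholly above control, and Dnajc14, an ER membrane J protein, had -0.33 ± 0.10 with HI wholly below.

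**Figure D3:**
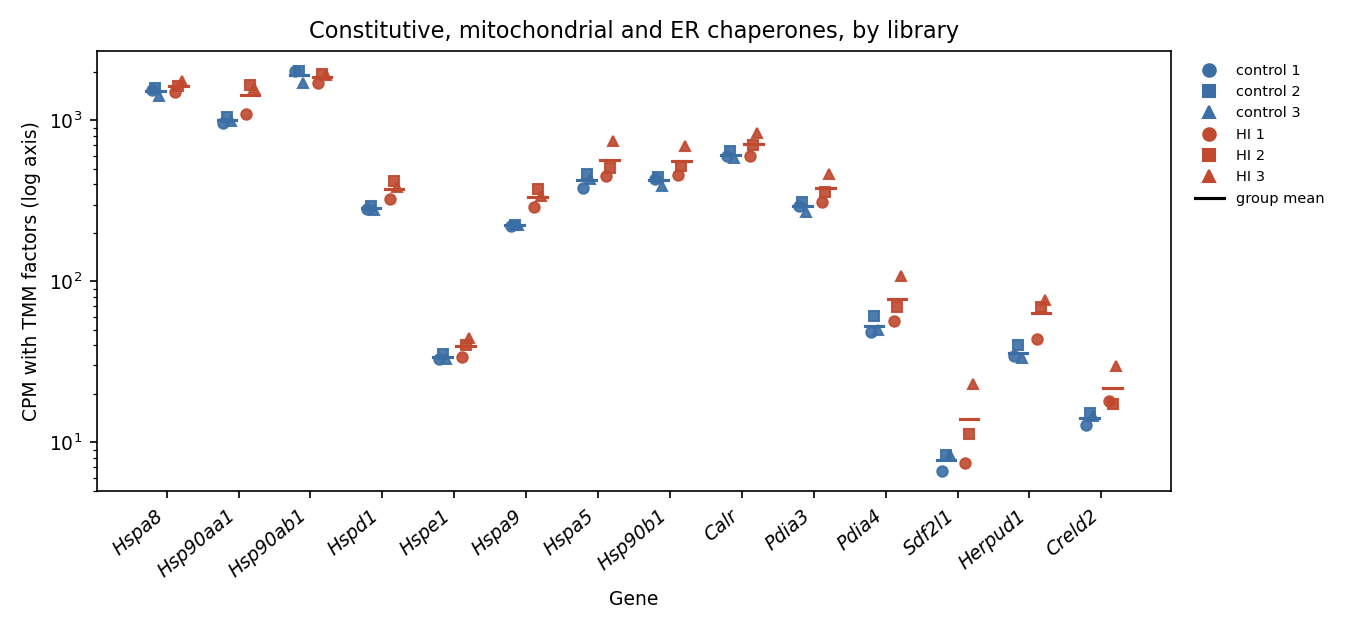
CPM with TMM factors on a log axis for 14 abundant or compartment-defining chaperones, with 1 symbol for each library and a bar at each group mean. The ER genes from Hspa5 to Creld2 have HI 3 as their highest library, 743 CPM for Hspa5, whereas Hspa8 and Hsp90ab1 mix the groups.

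Class medians of each library, relative to the mean of the controls, give the same picture by sample. The inducible class stood at 0.15, 0.56 and 0.54 in HI 1, 2 and 3, and its controls lay between -0.06 and 0.07. These medians include Hspa1a, which was tested only through its HI libraries. The inducible medians of HI 2 and HI 3 were thus alike, whereas the ER class stood at 0.09, 0.19 and 0.47 in HI 1, 2 and 3, with HI 3 apart. That likeness is one of medians and not of each member. Among the inducible members that rose, HI 3 was above HI 2 for Hspb1, Hspb8 (61.3 against 37.4 CPM), Cryab and Bag3. For LOC108348108 it was just below. The mitochondrial class read 0.06, 0.21 and 0.26. Constitutive members stayed between -0.10 and 0.01 and the chaperonin between -0.07 and 0.04, within their control ranges of -0.09 to 0.06 and -0.12 to 0.10 but for HI 1 of the constitutive class.

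**Figure D4:**
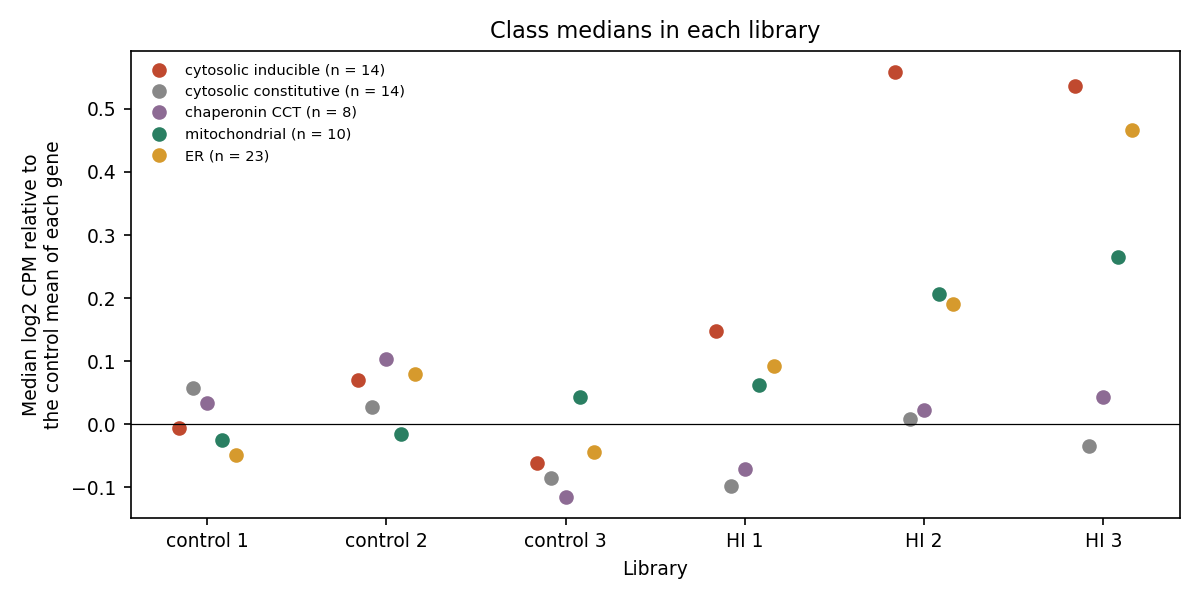
Each point is the median, over the tested genes of a class, of log2 CPM (with 0.5 CPM added) relative to the control mean of each gene, in each of the 6 libraries. The inducible class is at 0.56 and 0.54 in HI 2 and HI 3, the ER class at 0.19 and 0.47, and the constitutive class and chaperonin stay near 0.

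Ratios of related genes inside a library do not depend on how libraries are scaled, and 5 were formed after the values had been seen. Per 1000 reads of Hspa8 there were 3.15, 1.44 and 2.70 reads of the summed Hsp70-1 copies in controls and 12.6, 38.9 and 38.2 in HI. For Hsp90aa1, reads per 1000 of Hsp90ab1 were 477, 519 and 581 in controls and 645, 848 and 829 in HI, with every HI library above every control. Hspa9 per 1000 reads of Hspa8 went from 143, 141 and 159 to 194, 229 and 192, and Hsp90b1 per 1000 of Hsp90ab1 from 214, 220 and 229 to 269, 268 and 362. In those 4 ratios the groups did not overlap, with log2 differences of 3.53, 0.55, 0.47 and 0.42. The two-sided exact permutation p was 0.1 for each (0.125 after adjustment over the 5). That is the smallest that 3 against 3 libraries allow, so no ratio could pass 0.05. Of single genes tested, HI stood wholly above control for 21.5% and wholly below for 20.8%. Hspa8, Hspa9, Hsp90aa1 and both Hsp70-1 rows hold shared reads. The ratio of Hspa5 to Hspa8 overlapped between groups, with a log2 difference of 0.28 (exact permutation p = 0.2).

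Among vesicle, nuclear and other members the fall of Hspa12a was the largest of any chaperone gene. Hspa12a, a distant HSP70 relative, measured 327, 368 and 306 CPM in the control libraries and 163, 140 and 79.7 CPM in the HI libraries. The groups were far apart with HI 3 the lowest, at a log2 fold change of -1.39 ± 0.26 (edgeR adjusted p = 0.0280). Its span overlaps that of Eno4 in GRCr8. Its endothelial relative Hspa12b had 0.31 ± 0.29. The synaptic vesicle chaperone Dnajc5 (cysteine string protein) read 618, 578 and 596 CPM in the control libraries and 563, 505 and 358 CPM in the HI libraries, or -0.33 ± 0.18 on the log2 scale, which missed the threshold (edgeR adjusted p = 0.230). Dnajc6 (auxilin), which uncoats clathrin vesicles, had -0.33 ± 0.27 with overlapping groups. Dnajc9, a histone chaperone of dividing cells, measured 33.8 ± 3.38 CPM in the control libraries and 45.0 ± 0.864 CPM in the HI libraries, a log2 fold change of 0.42 ± 0.11 (edgeR adjusted p = 0.0554). Dnajc22 and Dnajb13, a J protein of motile cilia, had 1.31 ± 0.41 and 0.95 ± 0.35 and did not pass, and Dnajc22 entered the test through its HI reads. Ependymal markers were also higher in HI, at 103 to 250.2 CPM against 25.01 to 54.7 CPM in controls, and their part in the result was not tested. Dnajb7, Dnajc5b and Dnajc5g had at most 1 read in any library.

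Other genes of protein folding were read from lists drawn up by textbook role. Over all genes tested edgeR had 19.1% higher and 17.4% lower at an unadjusted p below 0.05. DESeq2 called 13.9% and 14.2% of all genes, and limma-voom 3.69% and 5.47%. Of 21 further cytosolic folding genes (prefoldins, immunophilins and HSP90 co-factors) 0 rose and 0 fell by edgeR, with 1 higher and 2 lower at an unadjusted p below 0.05, 1 and 2 by DESeq2 and 0 by limma-voom. Of 14 further mitochondrial folding and protease genes 0 rose and 0 fell, with 2 and 1 at an unadjusted p below 0.05, 1 and 0 by DESeq2 and 0 by limma-voom. Of 21 further ER folding genes 3 rose and 0 fell by edgeR, beside 6.83% and 7.04% of all genes tested. At an unadjusted p below 0.05 the counts were 8 and 0, by DESeq2 7 and 0, and by limma-voom 2 and 0. Serpinh1 (HSP47), the collagen chaperone of the ER, rose from 61.0, 99.5 and 75.5 to 138, 274 and 426 CPM, 3.55-fold (edgeR adjusted p = 0.0379). P4hb, the main disulfide isomerase, rose 1.62-fold and Ostc, a subunit of the oligosaccharyl transferase, 1.48-fold (edgeR adjusted p = 0.0424 and 0.0338). Among 15 sensors and factors of the unfolded protein response 3 rose and 1 fell by edgeR, beside the same 6.83% and 7.04% of all genes. At an unadjusted p below 0.05 the counts were 7 and 1, by DESeq2 5 and 1, and by limma-voom 2 and 0. The eIF2 phosphatase subunit Ppp1r15a rose 2.27-fold, the transcription factor Ddit3 (CHOP) 2.14-fold and the oxidative stress factor Nfe2l2 3.19-fold (edgeR adjusted p = 0.0312, 0.0398 and 0.0270). Mbtps2, the protease that releases ATF6, fell to 0.561 of the control level (edgeR adjusted p = 0.0442).

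Promoter sequences were compared because the members that rose were mostly of the heat-inducible class. RefSeq promoters (GRCr8) were found for 82 of the 103 members by gene ID, and LOC108348108, Cryab, Bag4 and Hspa12a had none in the table. A pair of heat shock units was searched on both strands as GAANNTTC or TTCNNGAA in the 250 bases before the start. Such a pair stood in 13.2% of all 27457 promoters, in 7 of 10 inducible members, 3 of 13 constitutive, 3 of 10 chaperonin, 3 of 8 mitochondrial and 1 of 20 ER members. It stood in all 4 members that rose and have a promoter in the table, Hspb1, Hspb8, Bag3 and Hspa9. In all, 20 of the 82 members held it, most of which did not rise. Among them were the inducible members Dnaja1, Dnajb1, Hsph1 and Stip1, which did not pass. Hspa1a, 1 of the Hsp70-1 copies, held 0 such pairs in the bases searched. A run of 3 such units in alternating direction, which contains the pair, stood in 0.597% of all promoters and in 4 members, Hspa8, Hsph1, Hspd1 and Hspe1, of which 0 rose by edgeR. The last 2 genes are neighbours whose spans overlap in GRCr8. An ER stress element, CCAAT and CCACG with 9 free bases between them on either strand, stood in 0.0765% of all promoters and in 6 of 20 ER members, Hspa5, Hsp90b1, Calr, Canx, Creld2 and Dnajc3, and in 0 members of other classes. A match is a description of these letters and not evidence that a factor binds there.

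The 250 bases before the start are shown for 3 genes that rose, for Hspa8 as the constitutive counterpart and for Hspa5 as the ER counterpart, 5′ to 3′ on the strand of the gene. Capitals mark pairs of heat shock units, or in Hspa5 the ER stress element. Hspb1 lies at chr12:26432302-26432551 (minus strand), Hspb8 at chr12:45837058-45837307, Bag3 at chr1:192533210-192533459, Hspa8 at chr8:50080264-50080513 and Hspa5 at chr3:38452766-38453015 (all plus strand), in GRCr8.
Hspb1: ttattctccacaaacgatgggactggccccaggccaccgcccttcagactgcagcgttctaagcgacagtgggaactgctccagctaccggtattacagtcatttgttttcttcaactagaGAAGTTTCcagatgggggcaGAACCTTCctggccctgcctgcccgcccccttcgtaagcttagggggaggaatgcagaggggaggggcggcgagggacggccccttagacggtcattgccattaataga
Hspb8: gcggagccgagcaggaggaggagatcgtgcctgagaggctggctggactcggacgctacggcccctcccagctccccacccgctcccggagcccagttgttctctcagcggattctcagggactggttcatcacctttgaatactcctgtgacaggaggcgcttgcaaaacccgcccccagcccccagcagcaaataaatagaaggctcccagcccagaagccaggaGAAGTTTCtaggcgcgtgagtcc
Bag3: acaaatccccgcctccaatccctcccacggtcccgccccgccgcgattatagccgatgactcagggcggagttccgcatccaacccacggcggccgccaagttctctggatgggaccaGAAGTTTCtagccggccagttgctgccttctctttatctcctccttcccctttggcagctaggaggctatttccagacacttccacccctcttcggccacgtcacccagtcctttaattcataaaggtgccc
Hspa8: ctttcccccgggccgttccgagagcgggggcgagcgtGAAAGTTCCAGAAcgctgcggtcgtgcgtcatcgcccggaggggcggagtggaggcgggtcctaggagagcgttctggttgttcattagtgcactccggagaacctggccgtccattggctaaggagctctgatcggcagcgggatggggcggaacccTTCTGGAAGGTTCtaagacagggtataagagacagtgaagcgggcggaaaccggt
Hspa5: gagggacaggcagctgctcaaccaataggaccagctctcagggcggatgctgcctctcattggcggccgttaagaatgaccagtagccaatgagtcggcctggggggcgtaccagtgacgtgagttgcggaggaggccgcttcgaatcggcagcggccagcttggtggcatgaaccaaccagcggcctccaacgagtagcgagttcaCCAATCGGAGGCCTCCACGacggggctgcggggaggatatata
Hspb1, Hspb8 and Bag3 all hold the unit pair GAAGTTTC preceded by A, at 129, 23 and 132 bases before the start. The 9 letters AGAAGTTTC, looked for on both strands after these sequences had been seen, occur in 0.397% of all promoters and in 3 of the 82 member promoters, which are these 3. Those letters were read from promoters of genes that rose, so their absence from the other members is no test. Hspa9, which rose, lacked them. Hspa8, which did not pass the test, holds 2 runs of 3 units. Pairs and runs of units alone thus did not sort the members that rose from those that did not.

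Cell type marker sums also differed between libraries, in an order that some of the chaperone genes had and others did not. Reactive astrocyte markers, 5 of 6 tested higher in HI, summed to 218 to 254 CPM in controls and to 1384, 2234 and 3776 CPM in HI 1, 2 and 3. Mural and smooth muscle markers, 5 of 10 higher, summed to 90.7 to 117 CPM in the control libraries and to 183, 381 and 549 CPM in the HI libraries, and microglia and macrophage markers, 10 of 10 higher, to 105 to 165 and to 317, 440 and 549 CPM. All of these lists had reads for every member, and each had HI 1 as its lowest and HI 3 as its highest HI library, as Hspb1, Hspb8, Cryab, Bag3 and Hspb6 did. LOC108348108 and Hspa9, which also rose, were highest in HI 2. The general astrocyte list had 1 of 10 higher and overlapped between groups. It summed to 1980 to 3370 CPM in controls and to 3686, 2951 and 3767 CPM in HI 1, 2 and 3. Neuron markers, 4 of 10 lower, summed to 5798, 4811 and 3128 CPM in HI 1, 2 and 3, and Hspa12a and Dnajc5 were likewise lowest in HI 3 and highest of the HI libraries in HI 1. Bag4 had that order too, but Dnajb5 was highest of the HI libraries in HI 2. Choroid plexus markers, 0 of 7 tested passing by edgeR, were highest in HI 3, as were most ER, inducible, chaperonin and BAG members. In control 2, the control with most choroid plexus reads, the ER class median was 0.08 against -0.05 and -0.04 in controls 1 and 3, and control 2 was also the highest control for the inducible class (0.07), the chaperonin (0.10) and the BAG co-chaperones (0.09). Of the ependymal markers, from cells that bear motile cilia, 3 of 6 were higher. Oligodendrocyte markers, 2 of 10 lower, summed to 864.5 to 1288 CPM in controls and 648 to 733 CPM in HI, and endothelial markers, 1 of 6 higher, ranged over 107 to 152 and 124.5 to 236 CPM. Skeletal muscle markers summed to 10.7 to 23.8 CPM over all libraries. The choroid plexus, ependymal, endothelial, oligodendrocyte and skeletal muscle sums also had HI 1 lowest and HI 3 highest of the HI libraries. The part of these cell types in the chaperone differences was not tested.

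**Figure D5:**
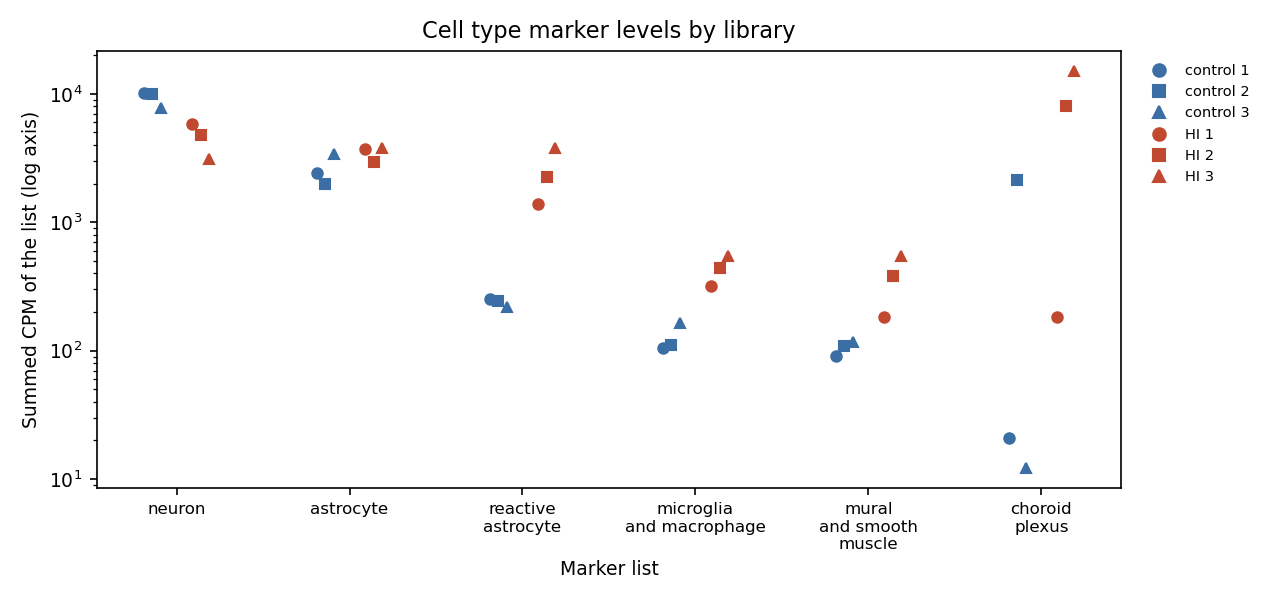
Summed CPM of each cell type marker list on a log axis, with 1 symbol for each library. Reactive astrocyte, microglial and mural lists are higher in all 3 HI libraries, the neuron list is lower, and the general astrocyte list overlaps between groups. The choroid plexus list runs from 12.3 CPM in control 3 to 15150 CPM in HI 3.

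The calls rested on few libraries. Without control 1, control 2 or HI 2, edgeR called 0 of 95, 95 and 93 tested members in either direction (11, 10 and 12 higher and 4, 3 and 4 lower at an unadjusted p below 0.05), with 0, 1 and 0 genes called in the whole table. Without HI 1 it called 12 members higher and 3 lower, without HI 3 it called 4 and 2, and without control 3 it called 4 and 3. In the whole table those fits called 2097 higher and 1592 lower of 15265 genes, 245 and 399 of 15079, and 608 and 1086 of 15335. The fold of Hspb1 ranged on the log2 scale from 3.98 to 4.73 over the 14 other settings tried, and that of Dnajb5 from -1.12 to -0.84.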

How the data were processed

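Estimated counts per gene were deposited by the authors without scaling. The genome build Rnor 6.0, StringTie 2.2.1, HISAT2 2.1.0 and SAMtools 1.10 are named, with no role, per the submitters' processing notes. How reads were counted, by strand or not and when shared between genes, was not given in the sources used here. All 6 columns were matched to samples by name, and 1 header is misspelled. Entries not whole to within 1e-09 mark rows with shared reads, 11 of 103 members, among them LOC108348108, Hspa1a, Hsp90aa1, Hspa8, Hspa9 and Canx, whose values are uncertain. Counts were rounded, filtered with filterByExpr (minimum count 10), scaled by TMM and tested with edgeR 4.0.16 (limma 3.58.1, R 4.3.3), a quasi-likelihood F test with group as the only term, adjusted over 14959 genes with a threshold of 0.05. The SE was derived from the F statistic. A count of 0 allows up to 3 reads, 0.182 to 0.227 CPM, for counting error only. Scripts were tested on simulated data. No libraries were duplicates (chi-square per degree of freedom from 13.4 to 162).

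Members, classes and lists were chosen with earlier results of these data known. Named by rule were a fixed set of core members, every member that passed and the 2 of smallest p in each class, 30 in all, and from each list of other folding genes up to 4 that passed. Further members are named to account for the classes, after their values were seen. Motifs were searched in RefSeq promoters of GRCr8, with 1 start per gene, the first listed. Alternatives were other scalings, DESeq2 1.42.0, limma-voom, other filters, a replicate block, and leaving out libraries or members with shared reads. The ratios used scipy 1.17.1.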

Additional observations from a re-analysis of the deposited data

How the results depend on the processing

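Scaling moved all classes together. The count of members called higher went from 6 to 10 under upper-quartile scaling and to 16 under total counts, where the median log2 fold change of all genes moved from 0.04 to 0.135 and 0.231. Over all 14959 genes tested the count called higher went from 1021 to 1446 and 2161. The median of the constitutive class became 0.073 and 0.17 and that of the chaperonin 0.10 and 0.20 with these scalings, and with total counts the mitochondrial and ER medians were 0.34 and 0.40. DESeq2 called 12 members higher, beside 13.9% of all genes, and limma-voom 3, beside 3.69%. Leaving out members with shared reads gave an inducible median of 0.18. Leaving out 1 library at a time gave 0 to 12 members higher and 0 to 3 lower. Over all genes those fits called 0 to 2097 higher and 0 to 1592 lower. Chaperonin medians then ran from -0.089 to 0.039, mitochondrial medians from 0.055 to 0.24 and ER medians from 0.10 to 0.34. For the summed Hsp70-1 copies the log2 fold changes ran from 3.49 to 4.16. That sum did not pass without control 1, control 2 or HI 2 (edgeR adjusted p = 0.0862, 0.0929 and 0.0832), nor by limma-voom (3.63, adjusted p = 0.0547), nor as Hspa1a alone (2.68, edgeR adjusted p = 0.130).

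Small differences changed sign. With upper-quartile and total-count scaling the log2 fold changes were 0.042 and 0.14 for Hsp90ab1, 0.031 and 0.13 for Tcp1, and 0.0445 and 0.14 for Hsf1, and with total counts 0.0444 for Cct6a. Canx was at -0.019 with no filter. Leaving out 1 library gave -0.036 to 0.032 for Canx, up to 0.0195 for Hsf1 (without control 3) and -0.085 (without HI 3) to 0.4325 for Hspb11. None of these genes was called in any setting tried. The replicate number as a block gave 6 members higher and 3 lower, beside 771 and 952 of 14959 genes. Class medians with the block were 0.40 (inducible), -0.02, 0.01, 0.13 and 0.18, and no call of a member changed. The labels do not say that a number marks a shared animal or day, and the deviations of same-numbered libraries correlated at 0.228, 0.0818 and -0.156, so the numbers were not taken to pair the libraries. The causes of these changes were not tested.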
